A study of Mus musculus with 12 samples.

Results

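Cytoplasmic ribosomal proteins are the protein parts of the ribosomes that translate the mRNA of the nucleus. They build the small subunit, which reads the mRNA, and the large subunit, which joins amino acids. Their genes (names starting Rps for the small and Rpl for the large subunit, with Rpsa and the stalk proteins Rplp0, Rplp1, and Rplp2) are housekeeping genes that every cell transcribes at a high level. Many of their mRNAs start with a run of C and T, the terminal oligopyrimidine motif, through which the mTOR kinase sets how much of each mRNA is translated. RNA-seq measures the amount of these mRNAs and not their translation. The genes were taken by symbol, without the rows named as pseudogenes and without the Rps6 kinases, which gave 89 of the 52636 genes in the count table. Of these, 53 were named for the large and 36 for the small subunit, and 83 were annotated as protein coding. The other 6 were processed pseudogenes that carry a gene-like symbol, such as Rps3a2 and Rpl6l. The filter on low counts kept 85 of the 89 genes, and 81 had a mean of at least 100 counts over the libraries.

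The libraries came from smooth muscle cells (SMCs) sorted by green fluorescence from the aortas of male C57BL/6J mice at 12 weeks of age. GFPiSMC mice carried Myh11-CreERT2 and the mT/mG reporter, and Tgfbr1/2iSMCKO mice carried in addition floxed alleles of Tgfbr1 and Tgfbr2, the TGF-β receptor genes. Both received tamoxifen for 5 days. By the methods, the dose was 2 mg/d from 11 weeks of age, and a subgroup induced at 4 weeks had 1 mg/d, while the labels name both schedules for these libraries. GFPiSMC mice carry no floxed receptor alleles, so mouse line and deletion cannot be told apart. Myh11-CreERT2 is active in SMCs and sits on the Y chromosome, which limits the model to males. In each of 3 animals per genotype the ascending/arch and the descending thoracic segment were sorted separately, so that there were 12 libraries in 4 groups of 3, with 9208 to 20000 sorted cells and 20467027 to 31392396 counts each. A gene's level is given as CPM, the counts of a gene scaled to a common library total, after TMM scaling, and per kb of transcript where genes are compared with each other.

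The cells carried the marks of SMCs in all 12 libraries. The summed level of 8 smooth muscle markers, among them Acta2 and Myh11, lay between 33927 and 47855 CPM. Of 8 fibroblast markers the sum in the ascending/arch libraries was 194 to 221 CPM in GFPiSMC and 118 to 256 CPM in Tgfbr1/2iSMCKO. In the descending libraries it was 90.1 to 106 CPM in GFPiSMC and 31.4 to 66.6 CPM in Tgfbr1/2iSMCKO. Of these 8 markers, edgeR called 2 lower in Tgfbr1/2iSMCKO, beside 5.03% of all genes called in either direction. The log2 fold changes of 4 of the 8 fibroblast markers were above 0, and the median over the 8 was 0.06. The sum of 6 endothelial markers was 54.4 to 104 CPM, nearly all of it Pecam1. By edgeR, 1 of these 6 was called higher in Tgfbr1/2iSMCKO, beside the same 5.03% of all genes. Macrophage markers summed to 5.47 to 17.7 CPM, and erythrocyte markers to 0.0767 to 101 CPM with the highest sum in the GFPiSMC descending library of animal 3. Lymphocyte, adipocyte, and Schwann cell markers stayed under 10 CPM in sum. Tgfbr1 (log2 fold change 0.10 ± 0.12, SE) and Tgfbr2 (-0.26 ± 0.11, SE) were not called between genotypes by edgeR, with adjusted p = 0.790 and 0.233. Counts summed over a whole gene include the exons outside the floxed part, so these rows do not check the labels.

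Runs of C and T at the listed start site were more frequent in these genes than among all promoters, though most of the genes lacked one. A promoter from RefSeq (GRCm38.p6) was found for 64 of the 89 genes, and for each the first listed start was taken, which can lie some bases away from the start used in these cells. For 5 of the 6 genes with the 3 largest differences between genotypes in each direction, those with a promoter, and for Rps27 and Rps6, which show the run at the start site itself, the following lines give 30 bases, 12 before and 18 from the start site on. The longest run of C and T is in capitals.
Rps2, chr17:24720051-24720080, plus strand: cagtcgagatctcgcgCTTCTTggagcact
Rpl22l1, chr3:28805496-28805525, plus strand: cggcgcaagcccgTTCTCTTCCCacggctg
Rpl10, chrX:74270804-74270833, plus strand: gttacagtggaagataggccgCCTatataa
Rpl12, chr2:32961700-32961729, plus strand: ggagcaggatccgTCTTTTCggctttcggc
Rpl22, chr4:152325714-152325743, plus strand: gCCCTgggaaaagcaatagctggccgatcg
Rps27, chr3:90213631-90213660, minus strand: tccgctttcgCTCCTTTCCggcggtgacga
Rps6, chr4:86857350-86857379, minus strand: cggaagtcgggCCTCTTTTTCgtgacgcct

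Rps27 and Rps6 had C at the start site and an unbroken run of 7 and 9 pyrimidines from it. Rpl22l1 had a run of 10 pyrimidines just after the listed start, Rpl12 a run of 7, and Rps2 a run of 6, while Rpl10 and Rpl22 had none longer than 3 and 4 in these windows. Over the 64 genes, 16 (25%) had at least 5 pyrimidines from the start site, against 4.36% of the first listed promoters of 27025 symbols. A run of 8 or more within 20 bases of the start occurred in 29 (45.3%), against 15.9% of all. C stood at the start in 22 genes (34.4%, against 16.2%). In the 300 bases of the promoters, both strands were searched for a few sets of letters. The letters CCGGAAG, the core that ETS factors bind, were present in 25 genes (39.1%, against 9.12% of all promoters). The letters GGGCGG, the Sp1 core, were in 38 (59.4%, against 35.9%), and AAGATGGC, which YY1 binds, in 5 (7.81%, against 2.88%). TATAA was in 18 (28.1%, against 25.5%), and CACGTG, the E-box, in 5 (7.81%, against 7.24%). The last letters of CCGGAAG can be the first of AAGATGGC, and CACGTG reads the same on both strands. A match is a description of the letters and does not show binding.

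Ribosomal protein genes were among the most abundant transcripts of these SMCs, and their levels per kb covered a wide range. Of the 81 genes that averaged 100 counts or more, 69 lay in the top 5% of 21883 nuclear protein-coding genes by mean CPM per kb. Their median was 322 CPM per kb. The highest was Rps14, a small subunit protein of the platform, with 1592 ± 266 CPM per kb (SD, n = 3) in GFPiSMC ascending/arch, 1338 ± 200 in GFPiSMC descending, 1421 ± 323 in Tgfbr1/2iSMCKO ascending/arch, and 1470 ± 353 in Tgfbr1/2iSMCKO descending libraries. Rps27 followed with 1284 ± 190, 1117 ± 245, 1176 ± 304, and 1243 ± 391 CPM per kb in the same order (SD, n = 3), so the mean ± SD ranges of Rps14 and Rps27 overlapped in each group. Rplp0, which anchors the stalk that recruits elongation factors, came next with 891 ± 27.2, 866 ± 39.6, 940 ± 124, and 878 ± 104 CPM per kb (SD, n = 3). At the lower end of the 81 genes stood Rps4l with a mean of 12.6 CPM per kb over the 12 libraries, Rpl22 with 24.4, and Rps20 with 29.6. Rps20 has a median transcript length of 3706 bases because long isoforms are annotated, which lowers its level per kb.

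**Figure D1:**
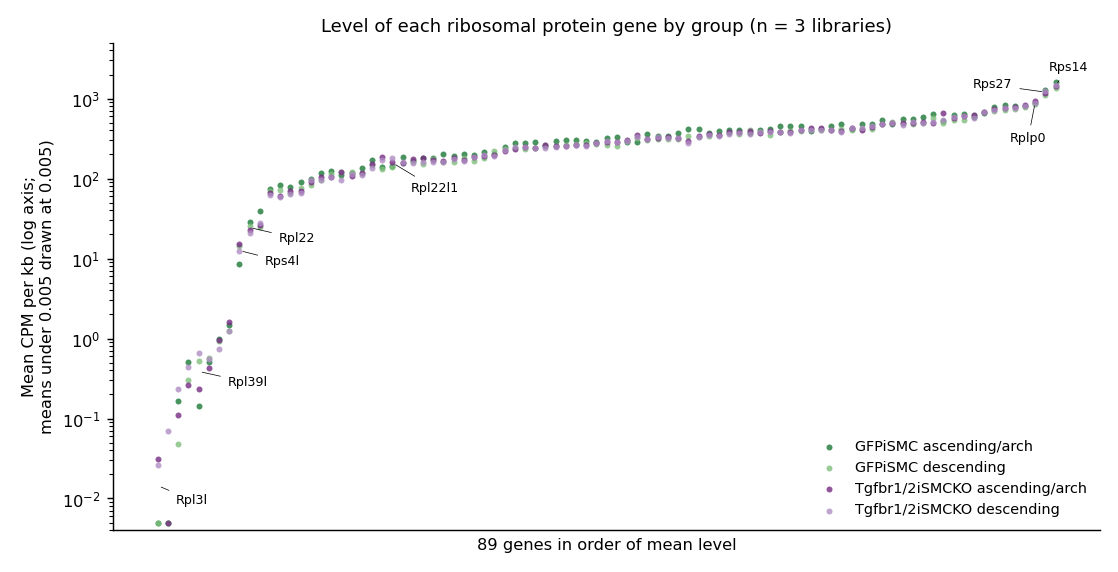
Mean level of the 89 ribosomal protein genes in CPM per kb on a log axis, ordered by the mean over 12 libraries, with a point for each group of 3 libraries. Group means of a gene lie close together beside the range from Rps4l (12.6 CPM per kb) to Rps14 (1455 CPM per kb), and 8 genes at the left end, such as Rpl3l, had means under 20 counts.

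The 3 lowest of all 89 genes were at or near 0. Rpl3l, a paralog of Rpl3 used in striated muscle, had 2 counts in each of the Tgfbr1/2iSMCKO libraries of animal 2 and 0 counts in the other 10 libraries. Rps12l1, a retro-copy of Rps12, had 2 counts in a single library, the Tgfbr1/2iSMCKO descending library of animal 2. Rpl10l, a retrogene of Rpl10 known from testis, had 0 to 10 counts, and was at 0 in 3 libraries. Rpl39l, likewise known from testis, had 0 to 26 counts. These 4 genes did not pass the filter on low counts. Rpl6l, Rps3a2, Rps3a3, and Rpl32l passed it with means of 8.58, 10.8, 19.1, and 14.6 counts, at 0.124% to 0.221% of the level per kb of their parent genes. Of the 89 genes, 79 had at least 1 other annotated copy of their coding sequence at 95% identity over 80% of its length, with a median of 4 and a maximum of 55 copies for Rpl21. Reads can be split among such copies. In Rpl21, 27.9% of the counts of the gene and its copies lay in the copies, against 6.01% in Rpl10, 6.18% in Rps27, and 3.3% in Rps2. The counts of a copy are those of its whole gene. For Rpl21, 41030 of the 46499 counts in copies lay in a single gene, BC004004. Whether these are reads of Rpl21 sequence was not tested.

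No ribosomal protein gene was called between genotypes at an adjusted p under 0.05. This comparison asks which transcripts differ in SMCs after deletion of both receptors, over both segments. Of the 85 genes tested by edgeR, 0 passed, where 5.03% of the 22320 genes of the whole table passed. DESeq2 called 1 of the 85 (Rps2), and 11.3% of the 17946 genes that it gave an adjusted p. With counts summed per animal, 0 members and 1.86% of all genes passed. At an unadjusted p under 0.05 edgeR found 3 members (Rpl10, Rps2, and Rpl12), and 16.1% of all genes. Log2 fold changes ranged from -0.40 for Rpl10 to 0.38 for Rps2, and 22 of the 85 were above 0. Their median was -0.06, beside 0.04 over all genes tested.

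In the fit over 12 libraries, the differences of most of these genes were bounded within a narrow range. This fit takes the segments of an animal as independent, so its SE and intervals may be too small. For the same 81 genes, the SE of the log2 fold change had a median of 0.14. The 95% interval lay within a 2-fold change in either direction for 81 of the 81, and within a 1.5-fold change for 71. The spread over the 12 libraries was also small, with a median SD of 0.26 on the log2 scale (range 0.0993 to 0.444), beside 0.40 over 11114 genes of the table that reach the same mean count. Rpl7l1, Rpl13a, and Rpl18 varied least, with 1.23-fold, 1.27-fold, and 1.28-fold between the lowest and the highest library. Rps20, Rpl29, and Rps4l varied most, with 2.75-fold, 2.85-fold, and 2.59-fold. Depth was high for this comparison, since 79 of the 89 genes had at least 1000 counts in every library.

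**Figure D2:**
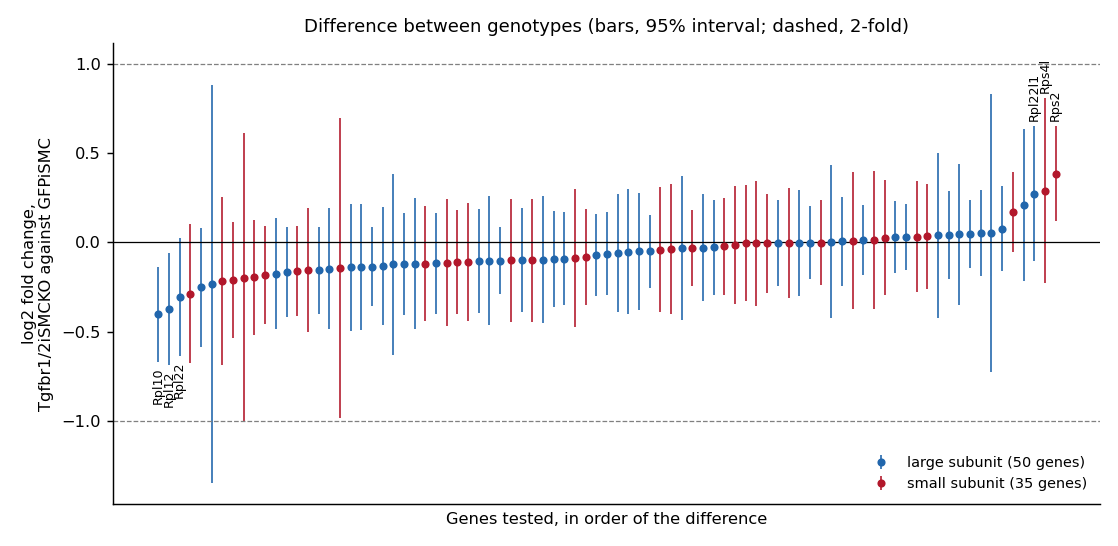
Log2 fold change of Tgfbr1/2iSMCKO against GFPiSMC for the 85 genes tested (edgeR, segment in the fit), ordered by size, with 95% intervals as bars, genes of the large subunit in blue, and genes of the small subunit in red. Differences ran from -0.40 to 0.38, and the 2 intervals that pass the dashed lines at a 2-fold change belong to Rpl6l and Rps3a3, which had few counts.

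Sorted by role, no part of the ribosome held a gene that passed the test. The median log2 fold change between genotypes was -0.07 over 48 genes of the large and -0.04 over 33 genes of the small subunit, with 13 and 8 genes above 0. In the stalk, Rplp0 stood at 0.05 ± 0.09 (SE), Rplp1 at -0.25 ± 0.15, and Rplp2 at -0.07 ± 0.11, with adjusted p from edgeR of 0.887, 0.502, and 0.849. Rpl5 and Rpl11, which join the 5S RNA and can bind Mdm2, stood at -0.16 ± 0.11 and -0.17 ± 0.12 (SE). Rps6, the target of the S6 kinases, had a 95% interval from -0.24 to 0.23 on the log2 scale. Rps27a, made as a fusion with ubiquitin, had an interval from -0.36 to 0.35. Rpl3 and Rpl4, core proteins of the large subunit, stood at 0.04 ± 0.11 and 0.03 ± 0.09 (SE). The summed CPM per kb of the large subunit genes divided by that of the small subunit genes was 1.31 to 1.43 in the GFPiSMC and 1.27 to 1.44 in the Tgfbr1/2iSMCKO libraries, and the means per animal were 1.38 ± 0.05 and 1.37 ± 0.06 (SD, n = 3, two-sided exact permutation p = 0.8, smallest possible p 0.1).

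Rps2 had the largest value on the higher side. Rps2 is a small subunit protein near the entry of the mRNA channel, and its gene lies at chr17:24718116-24721929 (GRCm38). Its level was 158, 140, and 129 CPM in the GFPiSMC ascending/arch libraries of animals 1 to 3, and 131, 109, and 163 CPM in their descending libraries. In the Tgfbr1/2iSMCKO animals it was 191, 208, and 161 CPM in the ascending/arch, and 199, 177, and 148 CPM in the descending libraries. The ascending/arch groups did not overlap, as in 19% of all genes, whereas the descending libraries did. The log2 fold change of Rps2 was 0.38 ± 0.12 (SE, 95% interval 0.12 to 0.65), with an adjusted p of 0.104 by edgeR. Over the 17 alternatives the adjusted p ran from 0.0423 to 0.357. It was 0.0453 by DESeq2, 0.0423 by edgeR with scaling to library size only, and 0.0489 by edgeR without Tgfbr1/2iSMCKO animal 3, and was above 0.05 in the others, with 0.297 by edgeR on counts summed per animal and 0.357 by edgeR after the correction for GC content. Within each segment the value was alike, 0.39 ± 0.18 in the ascending/arch and 0.38 ± 0.18 in the descending segment (SE).

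Rpl10 had the largest value on the lower side. Rpl10 joins the large subunit late and is needed before the subunits can join, and its gene lies at chrX:74270812-74273135. Its level was 257, 351, and 309 CPM in the GFPiSMC ascending/arch and 253, 231, and 261 CPM in the GFPiSMC descending libraries. In Tgfbr1/2iSMCKO libraries it was 227, 238, and 179 CPM in the ascending/arch and 211, 235, and 163 CPM in the descending segment. All 3 Tgfbr1/2iSMCKO ascending/arch libraries lay below all GFPiSMC ascending/arch libraries. In the descending segment the Tgfbr1/2iSMCKO library of animal 2 was above the GFPiSMC library of animal 2. The log2 fold change was -0.40 ± 0.12 (SE, 95% interval -0.67 to -0.14), with an adjusted p of 0.0891 by edgeR, and between 0.0535 and 0.303 over the 17 alternatives tried. Rpl12, at the base of the stalk, followed with -0.37 ± 0.15 (SE, adjusted p = 0.203 by edgeR). Rpl12 measured 97.6, 117, and 99.2 CPM in GFPiSMC ascending/arch, 90.5, 78.9, and 99.3 in GFPiSMC descending, 82.1, 88.3, and 58.2 in Tgfbr1/2iSMCKO ascending/arch, and 79.3, 86.6, and 54.1 CPM in Tgfbr1/2iSMCKO descending libraries. For both genes the lowest values were those of Tgfbr1/2iSMCKO animal 3.

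**Figure D3:**
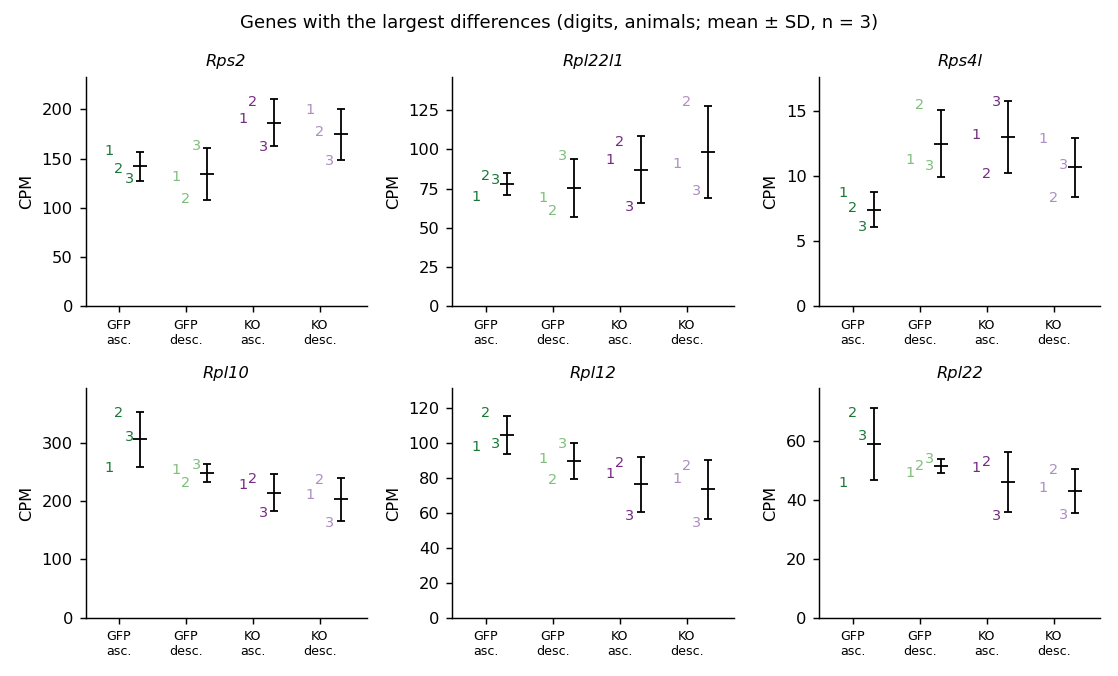
Level in CPM of the 3 genes with the largest values on the higher side (upper row) and on the lower side (lower row) in each of the 12 libraries, with the animal's number as the symbol and the mean ± SD of the 3 libraries beside it. Rps2, Rps4l, Rpl10, and Rpl12 separate the ascending/arch groups, as 19% of all genes do. Animal 3 is lowest within both Tgfbr1/2iSMCKO groups for every gene but Rps4l.

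Rps4l, annotated as a transcribed processed pseudogene (chr6:148354656-148355598), had the largest difference of the genotype effect between segments among the 81 genes that averaged 100 counts or more. Its level was 8.69, 7.55, and 6.07 CPM in the GFPiSMC ascending/arch and 11.2, 15.5, and 10.8 CPM in the GFPiSMC descending libraries. In Tgfbr1/2iSMCKO it was 13.1, 10.2, and 15.7 CPM in the ascending/arch and 12.8, 8.33, and 10.9 CPM in the descending libraries. The GFPiSMC ascending/arch libraries were below all of the GFPiSMC descending and all of the Tgfbr1/2iSMCKO ascending/arch libraries. Log2 fold changes of Rps4l between genotypes were 0.81 ± 0.28 (SE) in the ascending/arch and -0.22 ± 0.28 in the descending segment. The difference of these effects was -1.03 ± 0.39 (SE), with an unadjusted p of 0.0219 and an adjusted p of 1 by edgeR.

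Rpl22 and its paralog Rpl22l1 lay on opposite sides. Both proteins occupy the same place in the large subunit, and Rpl22 is known to restrain the expression of Rpl22l1. Rpl22 lies at chr4:152325742-152334071 and Rpl22l1 at chr3:28805436-28807424. Rpl22 measured 45.8, 69.7, and 61.9 CPM in GFPiSMC ascending/arch, 49.3, 51.6, and 54.0 in GFPiSMC descending, 51.0, 53.1, and 34.6 in Tgfbr1/2iSMCKO ascending/arch, and 44.3, 50.1, and 35 CPM in Tgfbr1/2iSMCKO descending libraries. Rpl22l1 measured 70.0, 83.2, and 80.6 CPM, 69.1, 60.7, and 96.0 CPM, 93.3, 105, and 63.4 CPM, and 90.8, 130, and 73.7 CPM in the same order. For each gene alone the genotypes overlapped, and the log2 fold changes were -0.31 ± 0.15 for Rpl22 and 0.27 ± 0.18 for Rpl22l1 (SE, adjusted p = 0.360 and 0.530 by edgeR).

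Taken as a ratio within each library, the pair separated the genotypes. The ratio, formed after the values of both genes had been seen, does not depend on the scaling between libraries. Per kb, Rpl22l1 stood at 5.82, 4.54, and 4.95 times Rpl22 in the GFPiSMC ascending/arch and at 5.33, 4.48, and 6.77 times in the GFPiSMC descending libraries. In Tgfbr1/2iSMCKO libraries it stood at 6.95, 7.51, and 6.98 times in the ascending/arch and at 7.79, 9.90, and 8.01 times in the descending segment. All 6 Tgfbr1/2iSMCKO libraries were thus above all 6 GFPiSMC libraries, at 6.95 to 9.90 against 4.48 to 6.77. Over animals the log2 ratio was 2.40 ± 0.19 in GFPiSMC and 2.96 ± 0.13 in Tgfbr1/2iSMCKO (SD, n = 3). The two-sided exact permutation test over animals gave p = 0.1, the smallest that 3 against 3 allow. After adjustment over the 4 of 12 paralog pairs that were tested, its p was 0.4. Both genes were among the 3 largest differences in their direction, so their ratio was likely to separate the genotypes. The separation and the test are therefore a description and no independent support. Without any of the 6 animals the difference of the fitted log2 fold changes of Rpl22l1 and Rpl22 stayed between 0.47 and 0.66, with 0.58 over all animals and 0.57 after correction for GC content.

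The other pairs did not separate the genotypes. Rps27l, which p53 is known to induce, reached 48.3% of the level per kb of Rps27, with ratios of 0.433 to 0.512 in GFPiSMC and 0.466 to 0.517 in Tgfbr1/2iSMCKO libraries. Rpl7l1 reached 26.6% of Rpl7, with ratios of 0.218 to 0.338 and 0.213 to 0.377. Rps4l reached 3.55% of Rps4x, with ratios of 0.0174 to 0.0613 and 0.0235 to 0.0748. In log2 units the genotypes differed by 0.00, 0.04, and 0.47 over animals, with exact permutation p of 1, 1, and 0.4 over 3 against 3 animals, and p = 1, 1, and 0.8 after adjustment over the 4 pairs.

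**Figure D4:**
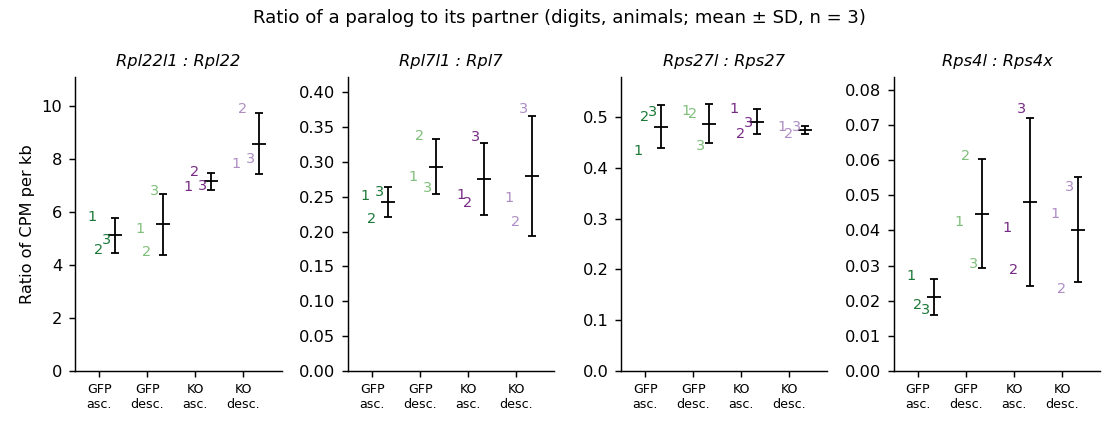
Ratio of CPM per kb of a paralog to its partner in each of the 12 libraries, with the animal's number as the symbol and the mean ± SD of the 3 libraries beside it. The Rpl22l1 to Rpl22 ratio lies at 4.48 to 6.77 in GFPiSMC and at 6.95 to 9.90 in Tgfbr1/2iSMCKO libraries, whereas the genotypes overlap in the other panels.

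Within a segment, no ribosomal protein gene was called between genotypes. In the ascending/arch segment, edgeR called 0 of the 85 genes between genotypes (1.41% of all genes). At an unadjusted p under 0.05 it found 3 (Rps4l, Rpl10, and Rps9, 11.4% of all genes). DESeq2 called 0 of the 85, beside 377 higher and 532 lower of all 22320 genes. The 3 Tgfbr1/2iSMCKO libraries lay all above or all below the 3 GFPiSMC libraries for 8 genes, while 19% of all genes did so. These were Rps2, Rps4l, and Rps9 above, and Rpl7, Rpl7l1, Rpl10, Rpl12, and Rplp1 below. Rps9, a small subunit protein, stood at 0.31 ± 0.14 (SE, adjusted p = 0.432 by edgeR). In the descending segment, edgeR called 0 of 85 (1.72% of all genes), with 0 at an unadjusted p under 0.05 (10.7% of all genes). DESeq2 called 0 of the 85 there, beside 361 higher and 558 lower of all 22320 genes. None of the 85 separated the descending libraries, against 14.9% of all genes. Over both segments, none lay above or below in all 6 libraries, against 4.39%. Median log2 fold changes were -0.13 in the ascending/arch (0.01 over all genes) and 0.00 in the descending segment (0.04 over all genes). The difference of the genotype effect between segments was called for 0 of 85 genes by edgeR and by DESeq2. Over all 22320 genes, edgeR called 0%, and DESeq2 called 7 above 0 and 1 below 0. At an unadjusted p under 0.05 edgeR found 1 of the 85 (Rps4l, 2.95% of all genes).

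Between segments of the same genotype, no ribosomal protein gene was called. In GFPiSMC, edgeR called 0 of 85 genes between the descending and the ascending/arch segment (0.376% of all genes). At an unadjusted p under 0.05 it found 2 (Rps4l and Rps20, 5.98% of all genes). DESeq2 called 0 of the 85, beside 79 higher and 205 lower of all 22320 genes. The median log2 fold change was -0.18 (-0.01 over all genes), and 71 of the 85 genes were below 0. That median was -0.04 without GFPiSMC animal 2, which had 20000 sorted cells in the ascending/arch and 9208 in the descending library. The part of the cell number in this shift was not tested. The libraries of the segments did not overlap for 5 genes (13% of all genes), among them Rps4l, higher in the descending segment, and Rpl27a, Rps13, and Rps20, lower. Rps20, on the head of the small subunit, measured 130, 151, and 157 CPM in the GFPiSMC ascending/arch and 74.3, 121, and 82.8 CPM in the GFPiSMC descending libraries, at -0.66 ± 0.29 on the log2 scale (SE, adjusted p = 0.799 by edgeR). In Tgfbr1/2iSMCKO, edgeR called 0 of 85 genes (0.112% of all genes), with 0 at an unadjusted p under 0.05 (3.68% of all genes). DESeq2 called 0 of the 85 there, beside 48 higher and 116 lower of all 22320 genes. The median was -0.03 (0.00 over all genes), and no gene separated the segments (7.24% of all genes).

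The larger differences among these genes lay between single libraries and were shared by most of the genes. Summed over the 89 genes, ribosomal protein transcripts made up 1.91%, 2.20%, and 2.18% of all counts in the GFPiSMC ascending/arch libraries of animals 1 to 3, and 1.81%, 1.68%, and 2.16% in their descending libraries. In Tgfbr1/2iSMCKO they made up 2.35%, 2.35%, and 1.63% in the ascending/arch and 2.23%, 2.37%, and 1.68% in the descending libraries. Both libraries of Tgfbr1/2iSMCKO animal 3 were low, while the 4 libraries of the other Tgfbr1/2iSMCKO animals were above all 6 GFPiSMC libraries. Over animals the share was 1.99% ± 0.16 in GFPiSMC and 2.1% ± 0.39 in Tgfbr1/2iSMCKO (SD, n = 3, two-sided exact permutation p = 0.8, smallest possible p 0.1). Without animal 3, left out after its values were seen, the 4 Tgfbr1/2iSMCKO libraries of animals 1 and 2 gave 2.32% ± 0.06 (SD over libraries). These shares are parts of all counts without TMM scaling. The share was lower in the descending than in the ascending/arch library in 4 of 6 animals, by 0.12 percentage points on average (two-sided exact sign-flip permutation over 6 animals, p = 0.219, smallest possible p 0.0313). Wilson 95% intervals of a single share reached at most 0.0066 percentage points to either side, and cover counting error only.

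Gene by gene, the libraries of Tgfbr1/2iSMCKO animal 3 stood apart, while those of animals 1 and 2 lay within the range of GFPiSMC. Each gene's log2 CPM was set against its own mean over the 12 libraries, and the median over the 81 genes was taken. In the ascending/arch libraries of Tgfbr1/2iSMCKO animals 1 to 3 it was 0.11, 0.19, and -0.41, and in their descending libraries 0.06, 0.16, and -0.35. In GFPiSMC it was -0.03, 0.24, and 0.19 in the ascending/arch and -0.08, -0.20, and 0.14 in the descending libraries. Only 5 and 4 of the 81 genes were above their own mean in the libraries of Tgfbr1/2iSMCKO animal 3. In the libraries of Tgfbr1/2iSMCKO animals 1 and 2 this number was 57 to 76. In GFPiSMC it ran from 13 in the descending library of animal 2 to 73 in the ascending/arch library of animal 3. The same libraries of animal 3 had the lowest shares of mitochondrially encoded transcripts, at 2.39% and 2.49% of counts, against 2.99% to 4.98% in the other 10. They also had the lowest sums of smooth muscle markers, at 33927 and 35202 CPM, and the highest sums of macrophage markers, at 14.9 and 17.7 CPM against 5.47 to 12.6 CPM in the other 10. The 78 mitochondrial ribosomal proteins, which nuclear genes encode for the ribosome of the organelle, deviated by -0.20 and -0.12 there. The number of sorted cells split all 12 libraries in the same way. Libraries with 9208 to 12526 sorted cells had medians from -0.41 to -0.03 and shares of 1.63% to 1.91%. Those with 14360 to 20000 cells had medians from 0.06 to 0.24 and shares of 2.16% to 2.37%. The libraries with fewer cells included GFPiSMC ones as well as both of Tgfbr1/2iSMCKO animal 3. The part of these measures in the low ribosomal protein counts was not tested. In bulk samples less RNA per cell and fewer cells of a type cannot be told apart.

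**Figure D5:**
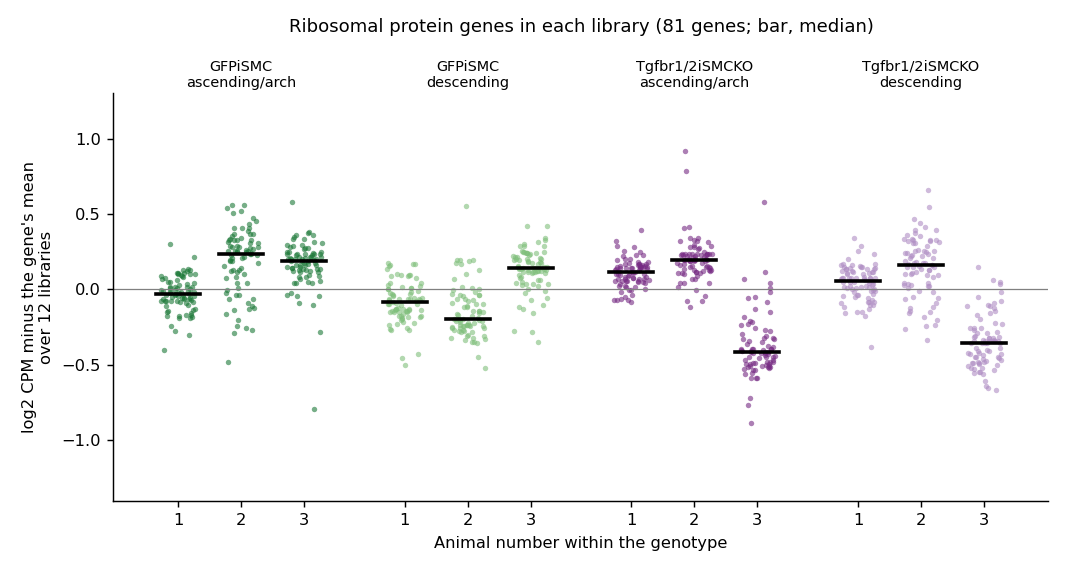
Log2 CPM of each of 81 ribosomal protein genes minus its own mean over the 12 libraries, for each library by group and animal, with the median as a bar. Most genes of a library lie on the same side, and the libraries of Tgfbr1/2iSMCKO animal 3 lie lowest, with medians of -0.41 and -0.35.

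Leaving out Tgfbr1/2iSMCKO animal 3 turned the direction of the summary between genotypes. The median log2 fold change of the 85 genes was 0.06 without this animal, against -0.06 with it, and was 0.00 without GFPiSMC animal 3. With scaling to library size only, the median of all genes moved from 0.04 to 0.16 and that of the ribosomal protein genes to 0.06, so that the difference from all genes was -0.10 under both scalings.

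Deviations within a library also varied with the GC content of the transcripts. The 81 genes were parted into 27 of low (39.8% to 49.6%), 27 of middle, and 27 of high GC content (54.2% to 60.8%). In the GFPiSMC ascending/arch library of animal 2 the median deviation was 0.28 in the low, 0.21 in the middle, and 0.13 in the high range. In the Tgfbr1/2iSMCKO ascending/arch library of animal 3 the medians were -0.47, -0.41, and -0.36. Across the 81 genes, which share a library and are no replicates, the correlation of deviation and GC content ran from -0.39 to 0.36 over the 12 libraries, and across 11101 genes of the table from -0.32 to 0.29. With a correction for GC content in each library, edgeR again called 0 of the 85 genes in each of the 6 comparisons. Of all 22320 genes it then called 414 higher and 790 lower between genotypes. Within segments it called 100 higher and 247 lower in the ascending/arch, and 123 higher and 307 lower in the descending segment.

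Genes of the translation machinery outside the symbol rule were examined as well. Fau, made as a fusion with a ubiquitin-like protein, stood at 0.06 ± 0.09 on the log2 scale between genotypes (SE), and Rack1, a scaffold on the small subunit, and Rpl36al at -0.32 ± 0.14 and -0.37 ± 0.16 (SE, adjusted p = 0.247 and 0.242 by edgeR). None of these 3 was called by edgeR (2 at an unadjusted p under 0.05) or by DESeq2. Of 48 translation factors, 23 other transcripts known for a terminal oligopyrimidine start, 45 ribosome assembly factors, and 78 mitochondrial ribosomal proteins, edgeR called 0 between genotypes, where 5.03% of all genes passed, with 5, 3, 4, and 5 at an unadjusted p under 0.05 (16.1% of all genes). DESeq2 called 0, 0, 0, and 4 of them (11.3% of all genes). Their median log2 fold changes were -0.04, -0.06, 0.02, and 0.00. Among 17 tested regulators of ribosomal protein output, edgeR called 1 and DESeq2 called 3, beside the same 5.03% and 11.3% of all genes. The gene called by edgeR was Tsc2, which restrains the mTOR kinase, with 119 ± 6.24 and 109 ± 3.28 CPM in the GFPiSMC ascending/arch and descending libraries and 72.2 ± 11.8 and 67.7 ± 5.42 CPM in the Tgfbr1/2iSMCKO ones (SD, n = 3). The log2 fold change of Tsc2 was -0.70 ± 0.11 (SE), with an adjusted p of 0.00119 by edgeR.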

How the data were processed

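RNA-seq counts of 12 libraries were used. The authors aligned reads with HISAT2 to GRCm38 and quantified GENCODE M15 genes with StringTie, and deposited whole-number counts per gene without normalization between libraries. Multiple alignments were not resolved here, so counts of genes with near-identical copies are uncertain. Strand was not given in the sources used here.

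Symbols, coordinates and transcript lengths came from GENCODE M21, which matched 52403 of 52636 genes. Copies were searched with BLAST 2.17.0. The main test was edgeR 4.0.16 (R 4.3.3), with filterByExpr, TMM and a quasi-likelihood fit of segment and genotype. A fit of 4 group means served for the comparisons within a segment or genotype. Adjusted p values are Benjamini-Hochberg over 22320 genes, and the threshold was 0.05. Level per kb used the median length of a gene's protein-coding transcripts. Alternatives used DESeq2 1.42.0 and limma 3.58.1, other scalings and filters, and each animal left out. The steps were tested on simulated data. Figures were drawn with matplotlib 3.10.9.

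The genes, lists, tests, and alternatives were chosen with earlier results of these data known. Full values were to be given for genes with an adjusted p under 0.05, the 3 largest log2 fold changes in each direction with a mean of at least 100 counts, the 3 highest and 3 lowest levels per kb, paralogs, and genes whose genotypes did not overlap. Libraries of a genotype with the same number were taken as segments of 1 animal. The correlation of their deviations across 9210 genes was 0.187, -0.242, and 0.0240 in GFPiSMC and 0.0612, 0.377, and 0.661 in Tgfbr1/2iSMCKO. Segments of 1 animal are not independent, so p values over 12 libraries may be too small and intervals too narrow. The number of sorted cells and the total counts were the depth measures, and the labels name no sequencing batch. Some genes of the lists are not reported here by name and remain in the counts.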

Additional observations from a re-analysis of the deposited data

How the results depend on the processing

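Of 270 alternative values, 263 kept their direction and side of the threshold or moved by less than 1 SD between replicates. That SD was 0.24 on the log2 scale, larger than every median log2 fold change of these genes in the main fits. A median could thus change its sign and still be counted, so for the medians this count is no measure of robustness. Between genotypes, 1 ribosomal protein gene (Rps2) was called with DESeq2 and 1 with scaling to library size only, against 0 by edgeR with TMM. Over all genes, DESeq2 called 11.3%, and scaling to library size only called 699 higher and 505 lower of 22320. With animals left out, 0 to 1 were called, and the 1 was Rps2 without Tgfbr1/2iSMCKO animal 3. That fit called 306 higher and 687 lower of all 23532 genes tested. In the other 5 comparisons 0 were called under the 14 or 15 alternatives run for them. Counts summed per animal, limma-voom, and the fit without segment were run between genotypes only. With the union of all exons as length, the median level was 106 CPM per kb in place of 322, and the gap follows from the longer lengths. Median log2 fold changes ranged from -0.17 to 0.06 between genotypes, -0.25 to 0.01 in the ascending/arch and -0.10 to 0.14 in the descending segment. Between segments they ranged from -0.27 to -0.04 in GFPiSMC and -0.06 to 0.01 in Tgfbr1/2iSMCKO. The share of counts averaged 2.05%, 2.21% of protein-coding nuclear counts, 2.06% with pseudogene rows, and 2.12% without Tgfbr1/2iSMCKO animal 3.

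With the replicate number as a block, 0 ribosomal protein genes were called in each comparison and their median between genotypes was -0.08. Of all 22320 genes this fit called 338 higher and 656 lower between genotypes. The number pairs libraries within an animal only, and animals of different genotypes share nothing but a number, so this block is no paired design. With 3 animals per genotype, 33 of 81 intervals between genotypes in the ascending/arch and 55 of 81 in the descending segment lay within a 1.5-fold change. The GC correction was chosen after the data were seen.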
